A study of Mus musculus with 4 samples.

Results

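Macroautophagy genes encode the machinery that encloses cytoplasm in a double membrane, the autophagosome, and delivers it to the lysosome. The 40 genes described here, of 20956 genes with a named probe on the array, were taken as a list of the core machinery, grouped by role, and not by their measured values. Each gene was read through its brightest probe, out of 55 probes that matched the 40 genes. All 40 genes had a probe, 12 had more than 1, and 39 were well above background on all 4 arrays; Atg4a was not well above background in control cells at day 0. The arrays measured total RNA of 3T3-L1 preadipocytes, an established mouse fibroblast-like line that turns into fat cells under hormones, with 1 array for each of 4 groups. The groups were control cells at day 0 (confluent cells in growth medium with 10% serum), cells knocked down for lamp2a at day 0, control cells at day 2 and knockdown cells at day 2. Cells of day 2 had been induced with 160 nM insulin, 250 nM dexamethasone and 0.5 mM 1-methyl-3-isobutylxanthine, a phosphodiesterase inhibitor, from day 0 on. Serum was 10% in all 4 groups. How the knockdown was made, what the control cells received and whether the cells were a clone or a pool are not given in the sources used here.

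LAMP2A, the target of the knockdown, is the lysosomal receptor of chaperone-mediated autophagy, a separate route by which single proteins cross the lysosomal membrane. In macroautophagy, a kinase complex around ULK1 starts the membrane, a lipid kinase complex around Beclin 1 marks it, lipid transfer proteins enlarge it, and a ubiquitin-like conjugation system attaches ATG8 proteins to it. Receptors such as p62 bind both ATG8 proteins and cargo, and SNARE and tethering proteins then join the closed autophagosome to the lysosome. In differentiating fat cells macroautophagy is known to be needed for adipogenesis, and loss of ATG5 or ATG7 impairs it.

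Levels are given as scaled signal, the processed signal of a probe divided by the 75th percentile of its own array, so that a ratio of scaled signals is the fold between arrays for that probe. With 1 array per group there is no test and no replicate error. A gene was counted as past the threshold at 2-fold, and the counts were read against the same counts over all genes and over 11394 bright genes, those brighter on average than the 95th percentile of 1072 olfactory receptor genes, which stand for background. Of the 40 members 39 were among the bright genes. The spread between spots of a probe printed 10 times on the same array gave a median SD of 0.0355 to 0.0725 for the log2 ratio of bright probes and 0.193 to 0.329 for dim ones, which covers printing and scanning error only.

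The processed signals had 67.4% to 88.6% of spots well above background. The control day 0 array had the lowest share and was alone on its slide, while the other 3 arrays shared the second slide, so that slide and group cannot be told apart wherever that array enters. The median signal of olfactory receptor genes was 11.2 on it and 23.6 to 39.8 on the others, which touches dim probes most. One Lamp2 probe had scaled signals of 19.7 in control and 4.76 in knockdown cells at day 0, 4.13-fold lower, and of 11.4 and 3.24 at day 2, 3.51-fold lower. The other Lamp2 probe was 1.29-fold and 1.08-fold lower, and which splice form each probe reads was not tested. All 8 fibroblast markers were well above background on every array, with summed scaled signals of 869 to 974. Macrophage markers (5 of 6 with a probe, all well above background on every array) summed to 17.3 to 37.6, most of it Itgam, and endothelial markers to 2.93 to 3.88. Epithelial markers summed to 0.0466 to 0.162, with Epcam not well above background on any array. Adipocyte markers summed to 0.128 to 0.833, the lowest in control cells at day 0 and the highest in control cells at day 2. The part of these other cell types in the results was not tested.

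The sequences around the transcription start of members that carry the results come from RefSeq on assembly GRCm38.p6, with 250 bases before and 50 from the start on; 32 of the 40 members matched, through 38 start sites. The first pair belongs to Vmp1 and Optn, which had the largest differences over induction, up and down, among the matched members; capitals mark the 50 bases from the annotated start on. Vmp1 lies on chromosome 11 on the minus strand (chr11:86683787-86684086, the most upstream of 3 starts) and Optn on chromosome 2 on the minus strand (chr2:5064068-5064367).
Vmp1: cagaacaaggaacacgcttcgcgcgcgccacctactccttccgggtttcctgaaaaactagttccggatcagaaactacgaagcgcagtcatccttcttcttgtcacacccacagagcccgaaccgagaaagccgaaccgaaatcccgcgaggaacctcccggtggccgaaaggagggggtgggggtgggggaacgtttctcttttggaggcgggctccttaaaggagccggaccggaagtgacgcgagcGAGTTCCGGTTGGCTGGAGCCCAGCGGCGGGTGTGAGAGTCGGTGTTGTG
Optn: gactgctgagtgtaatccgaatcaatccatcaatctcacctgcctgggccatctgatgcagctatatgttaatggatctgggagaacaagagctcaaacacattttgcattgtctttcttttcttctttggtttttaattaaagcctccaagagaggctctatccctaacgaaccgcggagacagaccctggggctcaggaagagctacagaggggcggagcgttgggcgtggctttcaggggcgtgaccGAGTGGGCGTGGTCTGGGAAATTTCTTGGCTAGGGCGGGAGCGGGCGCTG
The second pair belongs to Atg3 and Atg7, which were among the 3 members with the largest deficits in knockdown cells at day 0 and hold the E-box CACGTG, the core bound by TFEB, TFE3 and MITF; capitals mark the E-box. Atg3 lies on chromosome 16 on the plus strand (chr16:45158579-45158878) and Atg7 on chromosome 6 on the plus strand (chr6:114670846-114671145).
Atg3: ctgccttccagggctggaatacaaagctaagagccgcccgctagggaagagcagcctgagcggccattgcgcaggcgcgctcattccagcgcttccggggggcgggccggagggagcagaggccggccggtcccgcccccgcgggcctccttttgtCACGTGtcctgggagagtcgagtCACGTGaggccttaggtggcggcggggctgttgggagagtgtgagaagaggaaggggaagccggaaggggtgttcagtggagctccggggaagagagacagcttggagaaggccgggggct
Atg7: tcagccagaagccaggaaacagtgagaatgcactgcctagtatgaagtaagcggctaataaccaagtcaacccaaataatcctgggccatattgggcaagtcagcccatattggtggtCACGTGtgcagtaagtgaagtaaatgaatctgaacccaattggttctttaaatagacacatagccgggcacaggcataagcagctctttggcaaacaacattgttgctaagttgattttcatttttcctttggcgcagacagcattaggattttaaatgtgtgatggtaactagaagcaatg
The E-box stands at 2 places in the Atg3 window, whose first bases lie at -94 and -71 from the start, and at -132 in the Atg7 window. Read on both strands, CACGTG was present in 4 of 38 member windows (10.5%), those of Atg3, Atg5, Atg7 and Atg14, against 7.15% of 32851 windows of 300 bases in the table. Sqstm1, which had the largest deficit in knockdown cells at day 0, had no CACGTG match. The cAMP response element TGACGTCA was present in the Atg5 window, where it begins 1 base before the start, and in 1.79% of all windows. The palindromic glucocorticoid response pattern ACANNNTGT was present in the windows of Ambra1, Atg4c and Stx17 (7.89% of member windows, 6.85% of all), and the forkhead pattern TGTTTAC in 0 member windows (3.65% of all). A match is a run of letters and not a measured binding site.

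The knockdown at day 0 was compared first. In confluent cells before induction most macroautophagy genes were slightly lower in the knockdown array than in the control array: 34 of 40 members had a log2 ratio below 0 and 6 above, with a median of -0.24 and a range of -0.95 to 0.76. RNA was taken from whole cultures, so fewer cells that express a gene and less RNA per cell cannot be told apart. The largest deficits were those of Sqstm1, the cargo receptor p62 (1.94-fold lower), and of the conjugation enzymes Atg7 (1.80-fold) and Atg3 (1.68-fold). Ulk1, the initiating kinase, was 1.37-fold higher. Of the bright genes 5921 of 11394 were below 0, with a median of -0.02, and the median of all genes was 0.12. None of the 40 members was 2-fold higher or lower, where 18.4% of 19270 genes compared were at least 2-fold higher and 4.2% at least 2-fold lower; among bright genes these shares were 5.63% and 3.1%. The count of members below 0 was 30 to 35 under the other scalings and background corrections tried. Quantile and cyclic loess normalization moved the median of all genes to 0, and the share of called genes that were higher from 81.4% to 46.0% and 36.5%; normexp background correction gave 71.3%.

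**Figure D1:**
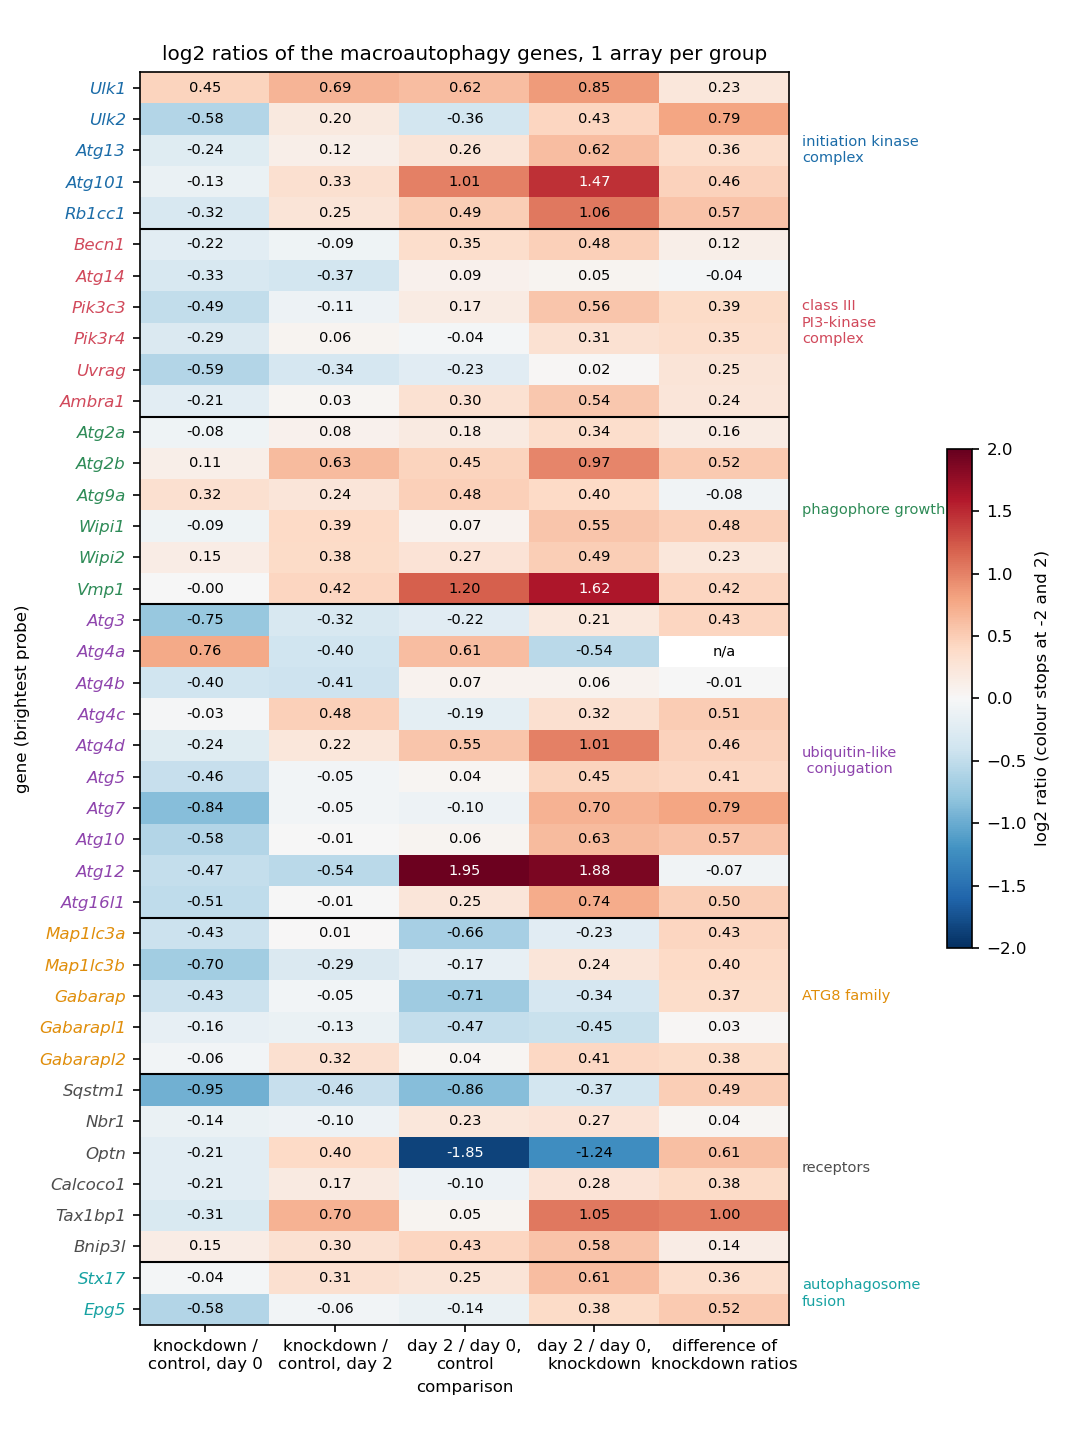
Log2 ratios of the 40 macroautophagy genes (rows, coloured and ruled off by role) in the 5 comparisons (columns), each from 1 array per group, with red for higher and blue for lower; Atg4a's values of 0.76 and 0.61 are lower bounds and n/a marks the difference that could not be formed. The day 0 knockdown column is mostly blue (34 of 40 below 0), and the day 2 against day 0 column of knockdown cells is mostly red (34 of 40 above 0).

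By role, all 6 genes of the lipid kinase complex were below 0 at day 0 (median -0.31), as were 9 of 10 conjugation genes (median -0.47) and all 5 ATG8 family genes (median -0.43). The 6 lipid kinase genes were below 0 under all 8 alternatives, while Gabarapl2, at -0.06, made the ATG8 count 4 to 5 of 5. The 6 genes of phagophore growth stood at 0, with a median of 0.06 and 3 on either side. Among receptors 5 of 6 were below 0 (median -0.21), and in the initiation complex 4 of 5 (median -0.24), the exception being Ulk1.

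Sqstm1 had scaled signals of 23.3 in control and 12.0 in knockdown cells at day 0, and of 12.9 and 9.35 at day 2. The control cells at day 0 were the highest of the 4 arrays, and both knockdown arrays were below the control array of the same day. Atg7, the E1-like enzyme that activates both ATG8 proteins and ATG12, had 2.82 and 1.57 at day 0 and 2.64 and 2.55 at day 2, so that the knockdown array of day 0 was the lowest of 4. Its second probe gave a log2 ratio of -0.68 at day 0, beside -0.84 for the brightest, and of -0.35 at day 2, beside -0.05. On that probe the knockdown array of day 2 was the lowest, at 0.445, next to 0.459 in knockdown cells at day 0. Over induction in knockdown cells the second probe of Atg7 gave -0.04 and the brightest 0.70. Atg3, the E2-like enzyme for ATG8 proteins, had 6.48 and 3.84 at day 0 and 5.54 and 4.45 at day 2, lower in the knockdown on both days. Map1lc3b, which encodes the ATG8 protein LC3B used as a marker of autophagosomes, had 43.0 and 26.6 at day 0 and 38.4 and 31.3 at day 2. Its probe was printed 10 times, and the log2 ratio was -0.70 ± 0.052 (SD over 10 spots of 1 array pair) at day 0 and -0.29 ± 0.024 at day 2, again lower on both days. Uvrag, a Beclin 1 partner, Ulk2, the second initiating kinase, and the fusion factor Epg5 had log2 ratios of -0.59, -0.58 and -0.58 at day 0, and the E2-like Atg10 -0.58.

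Members above 0 at day 0 were Atg4a, Ulk1, Atg9a, Bnip3l, Wipi2 and Atg2b. Ulk1 had scaled signals of 12.3 and 16.8 at day 0 and of 18.8 and 30.3 at day 2, with the knockdown higher on both days. Atg9a, the scramblase of the vesicles that seed the membrane, had 0.360 and 0.449 at day 0 and 0.501 and 0.593 at day 2; its day 0 ratio of 0.32 lay between -0.00027 and 0.39 under the alternatives. Atg4a, one of 4 proteases that trim ATG8 proteins, was dim on every array, with 0.0142 and 0.0295 at day 0 and 0.0266 and 0.0203 at day 2. Since it was not well above background in control cells at day 0, only a bound could be given there, at least 1.69-fold higher, and under the alternatives the ratio of this dim probe ranged from 0 to 0.83.

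At day 2 the knockdown and control arrays stood closer together for these genes. Of 40 members 22 were above 0 and 18 below, with a median of 0.05 beside 0.04 for bright genes and -0.00 for all genes; under cyclic loess the members' median was -0.011, with 20 on either side. Tax1bp1, a ubiquitin-binding cargo receptor, was 1.62-fold higher in knockdown cells, Ulk1 1.61-fold and Atg2b, a lipid transfer protein of the growing membrane, 1.55-fold. Atg12, Sqstm1 and Atg4b were 1.45-fold, 1.38-fold and 1.33-fold lower. None of the members was past 2-fold, where 2.89% of 18561 genes were at least 2-fold higher and 4.1% at least 2-fold lower, and 3.02% and 3.61% of bright genes. Both arrays of this comparison lay on the same slide.

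At day 2 the medians by role lay between -0.10 and 0.39, while 6332 of 11394 bright genes were above 0, with a median of 0.04. All 5 initiation genes (median 0.25) and all 6 phagophore growth genes (median 0.39) were above 0 in knockdown cells, also under all 8 alternatives. Of the conjugation genes 8 of 10 were below 0, with a median of -0.05, and of the lipid kinase genes 4 of 6, with a median of -0.10. Among the conjugation genes Atg10 and Atg16l1, at -0.01 each, lay within the spot error of 0. The ATG8 family had a median of -0.05 and the receptors one of 0.24, with 4 of 6 above 0. Atg2b had scaled signals of 0.453 and 0.491 at day 0 and of 0.620 and 0.961 at day 2, the knockdown array of day 2 being the highest. Atg4b, the main ATG8 protease, had 1.23 and 0.927 at day 0 and 1.29 and 0.968 at day 2, so that both knockdown arrays were below both control arrays. Atg14, the Beclin 1 subunit that directs the lipid kinase to autophagy, had the same order of arrays, with 2.02 and 1.61 at day 0 and 2.14 and 1.66 at day 2.

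Side by side, the knockdown ratios of the 2 days, which share no array, were both below 0 for 17 members, below 0 at day 0 and above 0 at day 2 for 17, both above 0 for 5, and the reverse for Atg4a. Taken 1 day at a time, 5921 of 11394 bright genes were below 0 at day 0 and 6332 above 0 at day 2. Some of the members' signs rest on ratios smaller than the spot error, such as Vmp1 at -0.0013 at day 0 and Map1lc3a at 0.0052 at day 2. At a size of 1.5-fold 5 members were lower and 1 was higher at day 0, where 9.54% of bright genes were lower and 12.9% higher. The 1 higher was Atg4a, whose value is a bound from a dim probe outside the bright genes. At day 2, 0 members were lower and 3 higher at that size, against 8% and 9.33% of bright genes.

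**Figure D2:**
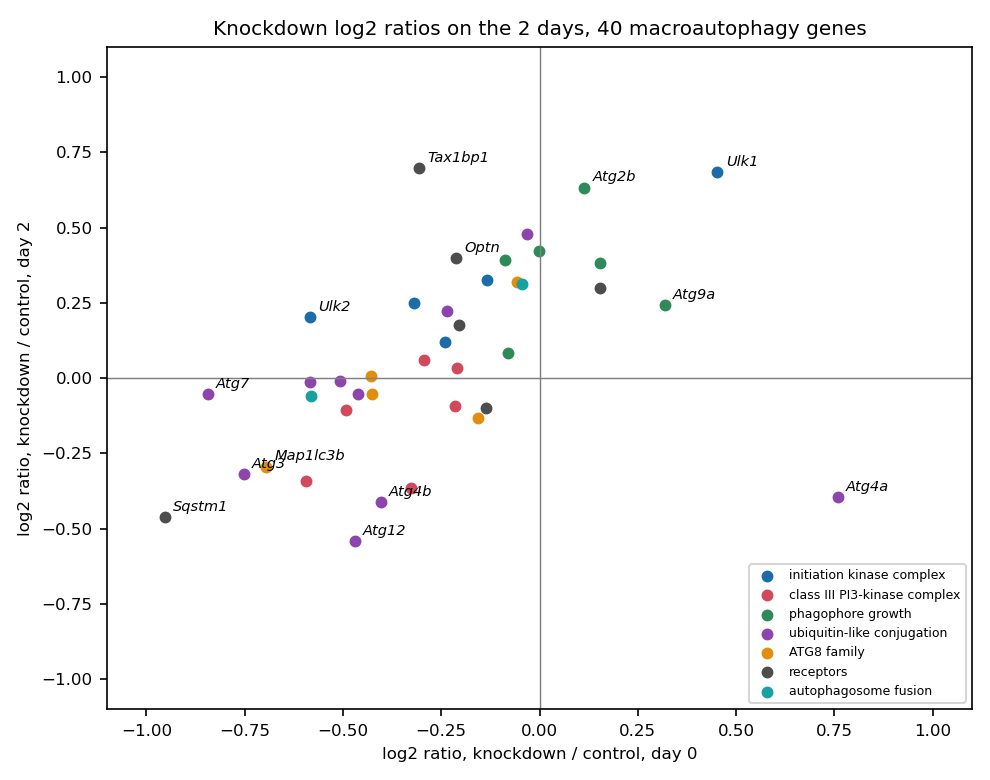
Log2 ratio of knockdown to control at day 0 (horizontal axis) against day 2 (vertical axis) for the 40 genes, coloured by role, 1 array per group; the position of Atg4a at day 0 is a bound. Points lie mostly left of 0 at day 0, with 17 in the lower left and 17 in the upper left field; Sqstm1, Atg3 and Map1lc3b are low on both days, and Ulk1 is above 0 on both.

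Induction in control cells was compared next, day 2 against day 0. Atg12, the ubiquitin-like protein that joins ATG5, was 3.87-fold higher after 2 days, Vmp1, an endoplasmic reticulum scramblase that supplies lipid to the growing membrane, 2.30-fold and Atg101, a subunit of the initiation complex, 2.01-fold. Optn, the receptor optineurin, was 3.61-fold lower, and Sqstm1 and Gabarap, an ATG8 family gene, were 1.81-fold and 1.64-fold lower. Thus 3 of 40 members were past 2-fold upward and 1 downward, where 20% of 18657 genes were at least 2-fold higher and 8.15% at least 2-fold lower, and 7.6% and 7.75% of bright genes. The members' share was close to that of bright genes upward (3 of 40) and below it downward (1 of 40). Their median was 0.08, beside 0.02 for bright genes and 0.19 for all genes, and 26 members lay above 0. Quantile and cyclic loess normalization moved the median of all genes to 0 and the share of called genes that were higher from 71.1% to 37.3% and 30.5%; Atg101 was past 2-fold in 5 of 8 alternatives, between 0.93 and 1.08.

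In knockdown cells 6 members were past 2-fold upward over induction and 1 downward. Atg12 was 3.69-fold higher, Vmp1 3.08-fold, Atg101 2.76-fold, Rb1cc1, the scaffold FIP200 of the initiation complex, 2.09-fold, Tax1bp1 2.08-fold and Atg4d, another ATG8 protease, 2.02-fold, while Optn was 2.36-fold lower. Of 19198 genes 5.01% were at least 2-fold higher and 9.07% at least 2-fold lower, and of bright genes 6.17% and 9.22%. The 6 of 40 members upward lay above these shares and the 1 of 40 downward below them. Of the 40 members 34 were above 0, with a median of 0.44, beside 6454 of 11394 bright genes and medians of 0.08 for bright and 0.00 for all genes. Both knockdown arrays lay on the same slide, though the day 0 array was not detrended by the scanner software and the day 2 array was. Without detrending the members' median was 0.47 and the counts were the same. The 3 weakest of the upward calls depended on the setting: Rb1cc1 and Tax1bp1 were past 2-fold in 6 of 8 alternatives and Atg4d in 3; the downward call of Optn held in 7. At a size of 1.5-fold 13 members were higher and 1 lower, against 16.4% and 16.1% of bright genes. In control cells 5 were higher and 4 lower, against 16.1% and 16.2%, and the 5 include Atg4a, a bound outside the bright genes.

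**Figure D3:**
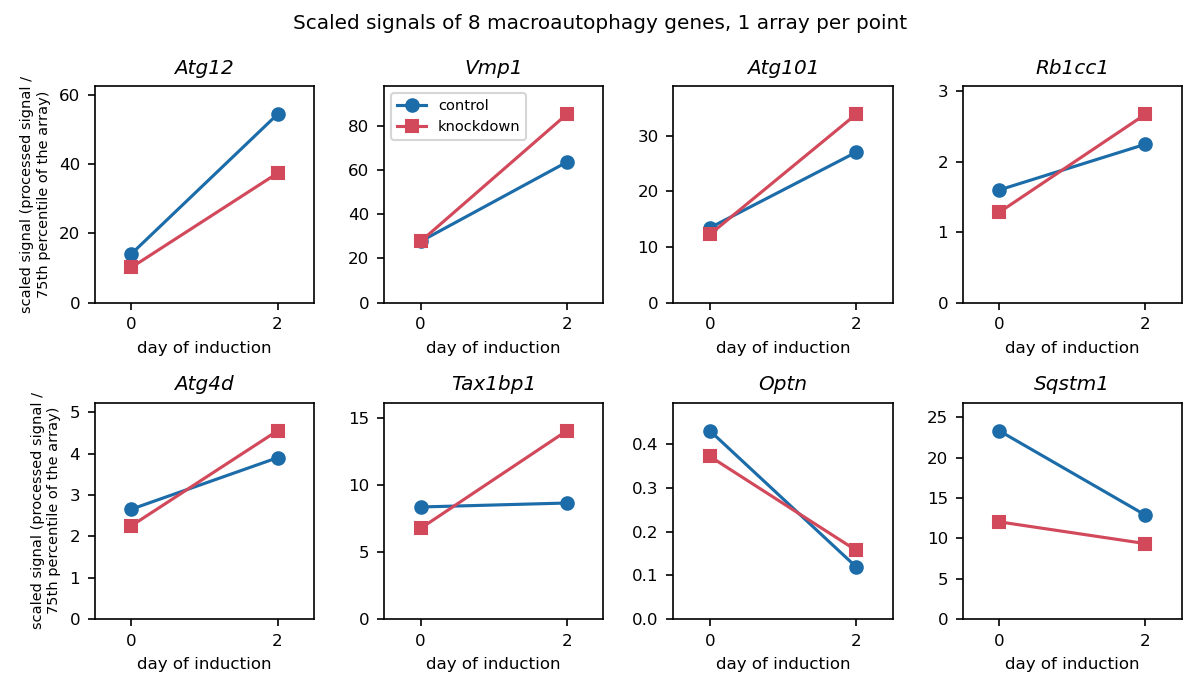
Scaled signal (vertical axis, processed signal over the 75th percentile of the array, from 0) at day 0 and day 2 of induction (horizontal axis) for 8 genes in control cells (blue circles) and knockdown cells (red squares), 1 array per point and no error bar. Atg12 and Vmp1 are higher and Optn lower at day 2 in both kinds of cells; Tax1bp1 goes from 8.36 to 8.66 in control and from 6.77 to 14.1 in knockdown cells.

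Atg12 had scaled signals of 14.0 at day 0 and 54.3 at day 2 in control cells and of 10.1 and 37.4 in knockdown cells. Both day 2 arrays were above both day 0 arrays, and the knockdown was lower on each day. Its second probe gave log2 ratios of 1.56 in control and 1.30 in knockdown cells over time, beside 1.95 and 1.88 for the brightest. Vmp1 had 27.7 at day 0 on both arrays, and 63.7 in control and 85.4 in knockdown cells at day 2. Atg101 had 13.5 and 27.1 in control and 12.3 and 33.9 in knockdown cells. For these 3 genes the direction was the same in both time courses and past 2-fold in each. Optn had 0.430 and 0.119 in control and 0.372 and 0.157 in knockdown cells, both day 2 arrays being below both day 0 arrays. On the day 2 arrays only Atg4a was dimmer among the members. Under the alternatives the log2 ratio of Optn ranged from -2.45 to -1.54 in control and from -1.28 to -0.97 in knockdown cells.

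Rb1cc1 had scaled signals of 1.60 and 2.25 in control and of 1.28 and 2.67 in knockdown cells, from the lowest array at day 0 to the highest at day 2 in the knockdown. Its second probe gave a log2 ratio of 0.59 over time in knockdown cells, beside 1.06, and so did not pass 2-fold. Atg4d had 2.65 and 3.90 in control and 2.25 and 4.55 in knockdown cells. Tax1bp1 had 8.36 and 8.66 in control cells, nearly level, and 6.77 and 14.1 in knockdown cells. The remaining initiation genes were above 0 over time in knockdown cells too, Ulk1 at 0.85, Atg13 at 0.62 and Ulk2 at 0.43.

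The ATG8 family went the other way from most members over induction. In control cells 4 of 5 were below 0, with a median of -0.47, and 3 of 5 in knockdown cells, with a median of -0.23; under the alternatives the control count was 4 to 5 and the knockdown count 3. Gabarap had scaled signals of 77.4 and 47.2 in control and of 57.5 and 45.5 in knockdown cells, the control array of day 0 being the highest, and its second probe gave a log2 ratio of -0.91 in control cells beside -0.71. Gabarapl1 had 80.5 and 58.0 in control and 72.2 and 53.0 in knockdown cells, both day 2 arrays below both day 0 arrays. Map1lc3a was lower in control cells at -0.66, whereas Gabarapl2 stood at 0.04 in control and 0.41 in knockdown cells. Among the conjugation genes Atg4a, the dim protease gene, was at least 1.53-fold higher over time in control cells, a bound, and 1.45-fold lower in knockdown cells.

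By role, the members' medians over induction in control cells were 0.49 for initiation, 0.36 for phagophore growth, 0.13 for the lipid kinase complex, 0.07 for conjugation and -0.03 for receptors. In knockdown cells they were 0.85, 0.52, 0.39, 0.54 and 0.27 in the same order. Becn1, the lipid kinase regulator, was at 0.35 and 0.48 in control and knockdown cells, and Bnip3l, a mitochondrial receptor, at 0.43 and 0.58. The 2 fusion genes, Stx17, the autophagosomal SNARE, and Epg5, a tether, were at 0.25 and -0.14 in control and at 0.61 and 0.38 in knockdown cells; the 3 probes of Stx17 did not share a sign in every comparison.

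The members not yet described lay within 2-fold in every comparison. In the lipid kinase complex, Pik3c3, the catalytic subunit VPS34, had log2 ratios of -0.49 at day 0 and -0.11 at day 2 in the knockdown and of 0.17 and 0.56 over induction in control and knockdown cells. Its regulatory subunit Pik3r4, printed 10 times, had -0.29 ± 0.049 (SD over spots) at day 0 and 0.06 ± 0.037 at day 2, and Ambra1, a Beclin 1 scaffold, -0.21 and 0.03. Among phagophore growth genes the lipid transfer gene Atg2a was at -0.08 and 0.08, and the phosphoinositide-binding WIPI proteins were at -0.09 and 0.39 for Wipi1 and at 0.15 and 0.38 for Wipi2. Atg5 and Atg16l1, partners of ATG12 in the ligase that lipidates ATG8 proteins, were at -0.46 and -0.51 in the knockdown at day 0 and at -0.05 and -0.01 at day 2. Over induction they stood at 0.04 and 0.25 in control and at 0.45 and 0.74 in knockdown cells. The protease gene Atg4c was at -0.03 at day 0 and 0.48 at day 2 in the knockdown. Of the receptors, Nbr1, a p62 partner, was at -0.14 and -0.10 in the knockdown and Calcoco1, a receptor for the endoplasmic reticulum, at -0.21 and 0.17.

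The difference between the knockdown ratios of day 2 and day 0, which is also the difference between the time courses, uses all 4 arrays, so its values repeat what the 4 ratios hold. It was above 0 for 35 of the 39 members that could be compared, with a median of 0.39 and 6637 of 11389 bright genes above 0 with a median of 0.08. Only Tax1bp1 was past 2-fold, at 1.00 upward, and none downward, where 2.9% of 15465 genes were at least 2-fold higher and 16.9% at least 2-fold lower, and 2.66% and 6.63% of bright genes. Tax1bp1 was past 2-fold in 5 of 8 alternatives, from 0.90 to 1.11. At a size of 1.5-fold 4 members were higher and 0 lower, against 9.73% and 12.7% of bright genes. Atg7 and Ulk2 followed at 0.79 each, Ulk2 with scaled signals of 2.81 and 2.19 in control and of 1.87 and 2.52 in knockdown cells. The second probe of Atg7 gave 0.33 and that of Ulk2 0.61. For 2 members counted above 0 another probe lay below 0. Wipi2 had -0.40 beside 0.23 for the brightest, and Stx17 had -0.22 and 0.21 beside 0.36. The 4 members below 0 were Atg9a at -0.08, Atg12 at -0.07, Atg14 at -0.04 and Atg4b at -0.01; Atg9a ranged from -0.17 to 0.22 and Atg14 from -0.13 to 0.014 under the alternatives. Quantile and cyclic loess normalization moved the median of all genes from -0.03 to 0.05 and 0.08 and the share of called genes that were higher from 14.7% to 44.7% and 56.9%, whereas 35 and 36 members were above 0.

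**Figure D4:**
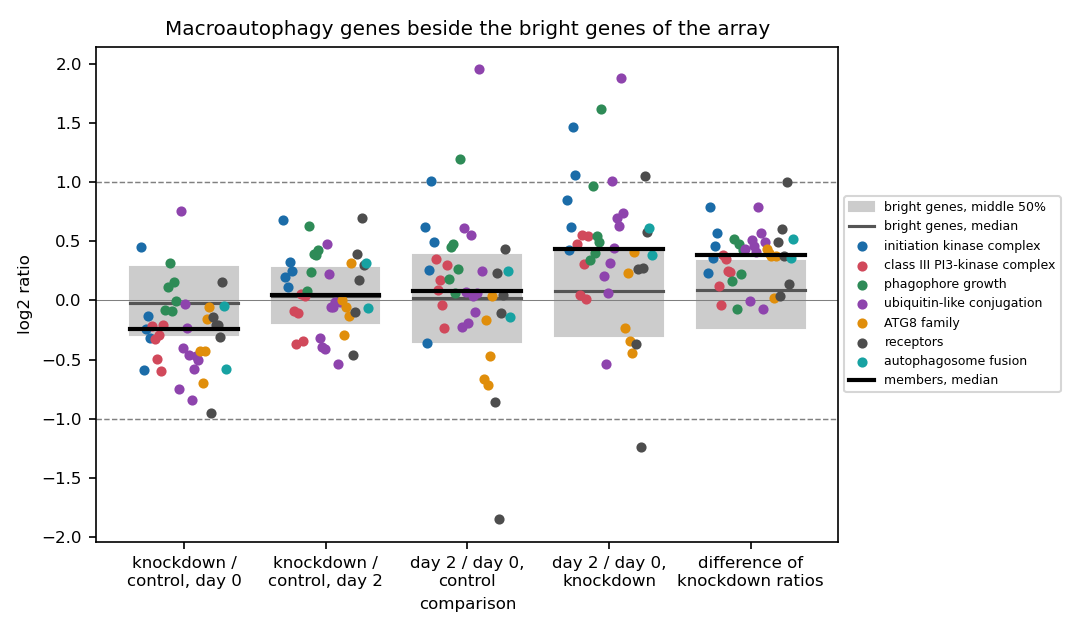
Log2 ratios of the macroautophagy genes (points, coloured by role) in the 5 comparisons, with their median (black line), beside the median and the middle 50% of the bright genes (grey line and box); dashed lines mark 2-fold, each group is 1 array, and Atg4a is a bound at day 0 and in the control time course. The members' median is -0.24 against -0.02 for bright genes in the day 0 knockdown comparison and 0.44 against 0.08 over induction in knockdown cells.

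Probes of the same gene gave a check of these values. Among the 12 members with several probes, 11 had a single sign at day 0 and 11 at day 2 in the knockdown comparisons, 10 over induction in control cells, 11 in knockdown cells and 10 in the difference. The median range between probes of a gene was 0.15, 0.12, 0.19, 0.39 and 0.19 in the same order, wider than the spot error.

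Another 67 genes around the pathway, in 5 lists, were read in the same way. At day 0, 3 were past 2-fold upward in the knockdown and 1 downward, with a median of -0.18, and at day 2, 4 were higher and 1 lower, with a median of 0.01. In the first of these comparisons 5.63% of bright genes passed 2-fold upward and 3.1% downward (all genes: 18.4% and 4.2%). In the second 3.02% of bright genes passed upward and 3.61% downward (all genes: 2.89% and 4.1%). Over induction 5 of the 67 were higher and 2 lower in control cells (median -0.17) and 4 higher and 2 lower in knockdown cells (median 0.06). Bright genes had shares of 7.6% higher and 7.75% lower in control cells, and of 6.17% and 9.22% in knockdown cells. All genes had 20% and 8.15%, and 5.01% and 9.07%. In the difference 2 of 66 were higher and 3 lower (median 0.23), where 2.66% of bright genes were higher and 6.63% lower. The shares of all genes there were 2.9% and 16.9%.

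Bnip3, a mitochondrial autophagy receptor and hypoxia-responsive gene, was higher in knockdown cells on both days, with scaled signals of 13.8 and 34.5 at day 0, 2.51-fold, and of 26.9 and 66.6 at day 2, 2.48-fold, and was past 2-fold under all 8 alternatives on both days. Its relative Bnip3l, by contrast, was at 0.15 and 0.30. Stbd1, a glycogen-binding receptor, had 5.52 and 4.28 at day 0 and 1.21 and 4.61 at day 2, 4.56-fold lower over time in control cells and 3.81-fold higher in the knockdown at day 2. The control array of day 2 was thus low and the other 3 were close together. Retreg1, an endoplasmic reticulum receptor with a dim probe, had 0.0297 and 0.148 at day 0 and 0.0215 and 0.0362 at day 2, and its day 0 log2 ratio of 2.31 ranged from 0.88 to 2.38 under the alternatives.

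Among nutrient-sensing genes, Mtor, the kinase that holds the ULK1 complex inactive when nutrients are plentiful, had scaled signals of 1.17 and 4.25 in control and of 1.42 and 7.78 in knockdown cells, 3.63-fold and 5.47-fold higher over induction. Ddit4, an inhibitor of that kinase induced by glucocorticoids, had 23.3 and 116 in control and 34.9 and 146 in knockdown cells, 4.96-fold and 4.19-fold higher. Both genes were past 2-fold under all 8 alternatives, and both day 2 arrays were above both day 0 arrays. Sesn1, of the sestrin family of leucine sensors, was 2.03-fold higher over induction in control cells, a call kept in 5 of 8 alternatives, the lowest at 0.97. Akt1s1, which encodes the mTORC1 subunit PRAS40, was 2.04-fold lower in the knockdown at day 0, with 1.62 and 0.795, in 5 of 8 alternatives. Prkaa2, a catalytic subunit of AMP-activated kinase, was dim, with 0.0373, 0.150, 0.0799 and 0.117 in control and knockdown cells at day 0 and then at day 2; its log2 ratio of 2.01 at day 0 ranged from 0.91 to 2.08.

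Of the transcription factors known to drive autophagy genes and their regulators, 0 of 9 were past 2-fold in the knockdown at day 0 and 2 were higher at day 2. Before induction 5.63% of bright genes passed 2-fold upward and 3.1% downward (all genes: 18.4% and 4.2%). After induction the upward share came to 3.02% of bright genes and 2.89% of all genes, the downward share to 3.61% and 4.1%. Mitf had scaled signals of 2.40 and 1.83 at day 0 and of 1.33 and 2.72 at day 2, 2.05-fold higher in the knockdown at day 2 and past 2-fold in 5 of 8 alternatives, the lowest at 0.89. Fnip2, a folliculin partner in lysosomal nutrient sensing, was 2.12-fold higher at day 2 and past 2-fold in all 8. Foxo1, a forkhead factor restrained by insulin, had 2.25 and 4.22 in control and 2.15 and 7.69 in knockdown cells, 3.57-fold higher over induction in the knockdown.

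Among the other phagophore proteins, Trp53inp1, a p53-induced LC3-binding protein, had scaled signals of 6.98 and 4.80 at day 0 and of 16.1 and 4.44 at day 2, 3.62-fold lower in the knockdown at day 2, the control array of that day being the highest. Its relative Trp53inp2 was 2.23-fold higher over induction in knockdown cells, in 7 of 8 alternatives. Atg16l2, a homolog of the ATG5 partner ATG16L1, was 2.32-fold lower over induction in control cells. Wdr45b, a WIPI family gene, was lower over induction in knockdown cells at -1.07, but its other probe gave -0.14.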

How the data were processed

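Total RNA of 4 samples was hybridised to 1-colour Agilent arrays (design 028005, Cy3), 1 array per group. Processed signal intensity per spot was deposited as the scanner software wrote it; per the file headers this was Agilent Feature Extraction 10.7.3.1, with background subtraction and, except on the knockdown day 0 array, detrending. The control day 0 intensities are rounded to 3 significant digits, per the files' values. From these, log2 signal minus the array's 75th percentile over non-control spots was computed, outlier spots were left out, repeat spots averaged, and the brightest probe taken per gene. Probes were named by RefSeq accession (assembly GRCm38.p6, for names and promoter windows): 27656 of 55681 probes. A probe well above background on 1 side only gave a bound, set against the lowest signal well above background on the other array; the difference of ratios needed all 4 arrays. Each ratio was formed for every gene, and a gene was called at 2-fold, with no test, since 1 array per group gives no residual spread; the number of arrays limits the precision. Scaled signals were printed for members past 2-fold or among the 3 largest differences in either direction; other pathway genes were named past 2-fold. Map1lc3b in the report, and the genes of the last section, were shown beyond that rule, after their values were seen. Members, lists, the bright-gene threshold and the alternatives were chosen with earlier results of these data known. The 8 alternatives used limma 3.58.1 in R 4.3.3 (normexp with an offset of 50, quantile, cyclic loess with 3 iterations) and Python 3.11.15 with numpy 2.4.6 and pandas 2.3.3, and a size of 1.5-fold was also tried. The scripts were tested on simulated data.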

Additional observations from a re-analysis of the deposited data

Results flagged for a closer look

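The knockdown ratios of the 2 days went opposite ways for the members' median, -0.24 at day 0 and 0.047 at day 2, a difference that was not tested, with 1 array per group. Under cyclic loess the day 2 median was -0.011, on the same side as day 0, and under quantile normalization it was 0.0093, with 20 members on either side; bright genes stood at 0.04 at day 2. Tax1bp1 stood at -0.31 and 0.70, and of the other pathway genes Mitf stood at -0.39 and 1.03 and Stbd1 at -0.36 and 1.93; these differences were not tested either. The day 0 ratios include the control array that was alone on its slide, and its part in these differences was not tested.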

How the results depend on the processing

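The members' median kept its sign under the 8 alternatives in 4 of the 5 comparisons and changed it at day 2 under cyclic loess. It ranged from -0.28 to -0.17 for the knockdown at day 0, from -0.011 to 0.05 at day 2, from 0.03 to 0.15 over induction in control cells, from 0.36 to 0.47 in knockdown cells and from 0.29 to 0.39 for the difference. With 1.5-fold in place of 2-fold, 1 member was higher and 5 lower in the knockdown at day 0, 3 were higher at day 2, 5 higher and 4 lower over induction in control cells, 13 higher and 1 lower in knockdown cells, and 4 higher in the difference; the shares of bright genes at that size stand beside these counts above. With the 75th percentile taken over probes well above background on all arrays, the median was -0.17 at day 0 and 0.29 for the difference, in which 0 members were higher. Quantile normalization gave a median of 0.0093 at day 2, 2 members lower over induction in control cells and 0 higher in the difference. Cyclic loess gave medians of -0.011 at day 2, 0.36 over induction in knockdown cells, with 3 members higher, and 0.32 for the difference. Normexp gave 0 members lower over induction in knockdown cells and a median of 0.32 for the difference. The cause of these shifts was not tested. Of single-gene values, 318 moved by no more than the spot error and 160 by more, and 1 past 2-fold changed sign. Among genes past 2-fold, the dim Prkaa2 over induction in control cells changed sign, at -0.023 under cyclic loess. For members short of 2-fold, the signs listed here cover those with the 3 largest differences in each direction of a comparison. Among these, sign was lost or turned under at least 1 alternative for Atg4a and Atg9a in the knockdown at day 0. The same held for Atg4a over induction in knockdown cells (up to 0.21), and for Atg9a and Atg14 in the difference. Members outside this list turned sign too, as the counts by role show. Over induction in control cells, for example, 4 to 8 conjugation genes were above 0. No paired analysis was possible because the labels give no replicate numbers and each group has 1 array. Signals near background limit Atg4a, Prkaa2 and Retreg1, and low day 2 signals limit the size of the Optn ratios.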

Other observations

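The genes for tethering and fusion of autophagosomes with lysosomes (Rab7, the HOPS subunits, the SNAREs Snap29, Vamp8 and Ykt6, Plekhm1 and Rilp) had 0 of 12 past 2-fold in the knockdown comparison of day 0, while 11 of 12 were below 0, with a median of -0.38. Of bright genes 5921 of 11394 were below 0 there, with a median of -0.02, and 5.63% were at least 2-fold higher and 3.1% lower. For all genes these shares were 18.4% and 4.2%. The control array of day 0 was alone on its slide. Snap29, the SNARE that pairs with syntaxin 17, was the lowest of the 12 at day 0. Its scaled signals were 5.35 in control and 2.93 in knockdown cells at day 0, and 6.49 and 4.72 at day 2. Vps41, a HOPS subunit, had a log2 ratio of -0.62 at day 0. At day 2, 8 of 12 were below 0, with a median of -0.15, beside 5062 of 11394 bright genes and a median of 0.04. Rab7, the late endosomal GTPase that recruits HOPS, was at -0.87 over induction in control and at -0.75 in knockdown cells. The genes named here and in the next paragraph were chosen after their values were seen, and none was past 2-fold in any comparison.

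The folliculin group, which controls TFEB and TFE3 at the lysosome, differed among its members. Flcn had scaled signals of 13.8 and 8.15 in control and of 9.36 and 5.43 in knockdown cells, lower at day 2 and lower in the knockdown on both days, though short of 2-fold in each. Fnip1 had 8.74 and 5.35 in control and 7.31 and 5.63 in knockdown cells, both day 2 arrays being below both day 0 arrays. Deptor, an inhibitor of the mTOR kinase, was lower in the knockdown on both days, at -0.99 and -0.88.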
